A study of Mus musculus with 24 samples.

Results

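The colon epithelium of mice at 24 months was compared with that at 12 months. Of the 24 RNA-seq libraries of the series, 5 belonged to this comparison by their titles, with 2 colon libraries (A and B) at 24 months and 3 (A, B and C) at 12 months. All the mice were of the strain Lgr5-EGFP-IRES-CreERT2, a knock-in of a green fluorescent protein and an inducible Cre recombinase at the stem cell gene Lgr5, and none were treated. The libraries held total RNA of colon epithelial cells that were not sorted for the reporter, so stem cells and their differentiated progeny were measured together. The 3 colon libraries at 4 months (A, B and C) entered the estimate of the spread between libraries, and the small intestine at 12 and 24 months, in an upper (USI) and a lower (LSI) section, served for comparison. Cells of several mice were pooled. The methods give pool sizes for the sorted cells, with fewer mice per pool at 24 than at 12 months and most at 4 months, and describe the RNA pools as prepared in the same way apart from sorting, without giving their sizes separately. The sources used here do not give the sex of the mice or the hour at which they were killed. The tests therefore take the scatter among these libraries as their error, and that scatter may be partly technical. In whole-epithelium RNA, fewer cells of a type and less RNA per cell cannot be told apart.

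The colon epithelium is a single layer folded into crypts. Stem cells at the crypt base divide continuously and give rise to absorptive colonocytes, mucus-secreting goblet cells, hormone-secreting enteroendocrine cells and chemosensory tuft cells, and the whole layer is replaced within days. Its cells also carry a circadian clock, in which the activators BMAL1 (encoded by Arntl) and CLOCK, or its relative NPAS2, drive genes for their own repressors, the PER and CRY proteins and the nuclear receptors NR1D1 and NR1D2. Levels of the activator transcripts and of most repressor transcripts therefore swing in opposite phase over the day, the latter together with those of output genes such as Dbp. Clock genes in a tissue reflect the hour and the feeding schedule as well as the state of the animal.

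The 5 libraries held between 35136375 and 36908777 counts each, of which 13.69% to 15.74% fell in mitochondrially encoded genes. Levels are given as CPM, read counts scaled by the library's TMM-normalized total, and differences as the log2 fold change of 24 minus 12 months with its standard error. Levels of a colonocyte and a goblet cell marker are given, without small-intestinal levels beside them, so they do not test colonic origin. Car1, a carbonic anhydrase of colonocytes, stood at 5401 and 6461 CPM at 24 months and 6656, 7434 and 8312 CPM at 12 months, and the goblet cell mucin gene Muc2 at 16330 and 15450 and 15200, 15720 and 19740 CPM. Genes of the Y chromosome had 6288 counts in the 24-month B library and between 0 and 6 in the other 4, and the female-specific RNA Xist stood at 628 and 0.551 CPM at 24 months and 716, 785 and 855 at 12 months, so library B at 24 months differed in this respect from all others compared. At 4 months, library B had 7301 Y-linked counts. The count column of that 4-month B library carries a code of the form used for another section. Its label was followed, and its Car1 level was 4477 CPM.

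Between 24 and 12 months, 10 of 16065 tested genes passed an adjusted p under 0.05 in edgeR's quasi-likelihood test, 5 higher and 5 lower. This is 0.0622% of the genes tested, whereas 1723 genes (10.7%) had an unadjusted p under 0.05. The genes that rose were Dmrta2, Lhfpl4, Itga5, St5 and Nfic, and those that fell included Pex5l, Rps4y2, Thbs1 and Tapbpl. Each of these 9 genes separated all 24-month from all 12-month libraries, which was also so for 15.7% of all tested genes in the upward and 15.5% in the downward direction. Over all genes, 50.1% had a positive log2 fold change.

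Dmrta2 encodes a transcription factor with a DM domain, a family known from sex determination and neural development, and lies on mm9 chromosome 4, 109650658 to 109656292. Its level was 5.64 and 6.33 CPM in the 24-month libraries and 0.518, 0.641 and 0.409 CPM in the 12-month libraries, with 0.371, 0.2803 and 0.452 CPM at 4 months. Both 24-month libraries thus stood far above every younger library, and the ages of 4 and 12 months overlapped. The log2 fold change was 3.51 ± 0.26 (adjusted p = 7.49e-04), and it also passed without each of the 5 libraries in turn, with the adjusted p at most 0.0295.

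Pex5l, whose product is related to the peroxisomal import receptor and binds the HCN pacemaker channels of neurons, lies on chromosome 3, 32848553 to 33042169. It had 0.111 and 0.0551 CPM at 24 months, 1.899, 1.89 and 2.102 CPM at 12 months and 5.36, 5.02 and 6.24 CPM at 4 months. The 3 ages did not overlap, and the level was lower at each later age. The 24-month levels were near the limit of detection and both mates of a pair added to the count. The size of the fall to 24 months is therefore uncertain. Between 24 and 12 months the log2 fold change was -4.51 ± 0.33 (adjusted p = 7.49e-04), and Pex5l too passed without each of the 5 libraries (adjusted p at most 0.0295). Dmrta2 and Pex5l did not pass in the fit to all 24 libraries of the series (adjusted p 0.172 and 0.127), where 1 gene (0.00572%) passed and where the small-intestinal libraries contribute a wider spread, with a biological coefficient of variation of 27.2% (USI) and 22.6% (LSI) against 14.3% for colon.

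Rps4y2, a gene on chromosome 6, 148303178 to 148304120, that is annotated as a copy of the gene of ribosomal protein S4, had no count in either 24-month library, against 22, 18 and 20 counts in the 12-month libraries A, B and C. At 4 months it had 313, 238 and 251 counts. With a floor of 3 counts over both 24-month libraries together, its level was 13.7-fold lower at 24 than at 12 months. In the quasi-likelihood test the adjusted p was 0.0131. Both mates of a pair added to the count, so counts were not independent and this fold is not a lower bound. Its near-identical paralog Rps4x, the X-linked gene of the same protein, stood at 305 and 302 and 316, 286 and 289 CPM at the respective ages, and the groups overlapped. Reads of such copies may be assigned to either, so the level of Rps4y2 is uncertain. In the fit to the 5 compared libraries alone Rps4y2 did not pass (adjusted p = 0.0758), and in the fit to all 24 libraries it was the gene that passed.

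The other 4 genes that rose differed by less. Lhfpl4, known for clustering GABA-A receptors at inhibitory synapses, had 3.75 and 3.25 CPM at 24 months and 0.863, 0.699 and 0.764 CPM at 12 months (log2 fold change 2.17 ± 0.23, adjusted p = 0.0131). Itga5, the alpha 5 integrin subunit of the fibronectin receptor, had 33.2 and 37.2 CPM against 21.3, 20.2 and 19.8 CPM (log2 fold change 0.79 ± 0.095, adjusted p = 0.0279). The 4-month levels of these genes, 0.531, 0.459 and 0.452 CPM for Lhfpl4 and 22.4, 19.7 and 20.9 CPM for Itga5, lay near or below those at 12 months. St5, which encodes a protein with a DENN domain, a module found in activators of Rab GTPases, had 68.2 and 66.2 CPM against 42.5, 45 and 42.7 CPM (log2 fold change 0.63 ± 0.079, adjusted p = 0.0302). Nfic, a transcription factor gene of the nuclear factor I family, had 119.7 and 120.2 CPM against 82.7, 81.8 and 79.2 CPM (log2 fold change 0.56 ± 0.075, adjusted p = 0.0393). For St5 the 4-month libraries lay between the other ages, at 57.6, 55.7 and 49.4 CPM. In mm9 these genes lie on chromosome 6, 113118084 to 113145378 (Lhfpl4), chromosome 15, 103174720 to 103197194 (Itga5), chromosome 7, 116667425 to 116760661 (St5) and chromosome 10, 80858931 to 80893750 (Nfic).

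Among the other genes that fell, Thbs1 encodes thrombospondin 1, a secreted matrix glycoprotein, and had 56.6 and 73.6 CPM at 24 months and 174, 148 and 130.2 CPM at 12 months (log2 fold change -1.21 ± 0.15, adjusted p = 0.0302). The 4-month libraries, at 87.3, 73.2 and 70.6 CPM, were below all 12-month libraries as well, so 12 months was the age with the highest level. Tapbpl, the TAPBPR protein that edits peptides on MHC class I molecules, had 22.6 and 22.97 CPM at 24 months against 33.8, 35.9 and 36.7 CPM at 12 and 37.4, 39.5 and 35.3 CPM at 4 months (log2 fold change -0.64 ± 0.082, adjusted p = 0.0312). Here the 24-month libraries stood below both younger ages, which overlapped. In mm9 the genes lie on chromosome 2, 117937612 to 117952869 (Thbs1) and chromosome 6, 125173951 to 125181878 (Tapbpl).

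The calls of Rps4y2, Lhfpl4, Itga5, St5, Nfic, Thbs1 and Tapbpl rested on both 24-month libraries. With 1 library left at 24 months, whose spread is then taken from the other groups, none of these 7 passed. Without library A the adjusted p ranged from 0.15 (Rps4y2) to 0.355 (Tapbpl), and without library B, the one with Y-linked counts, from 0.14 (Lhfpl4, Rps4y2 and Thbs1) to 0.515 (Nfic). Without the 12-month library B none of the 7 passed either, with an adjusted p from 0.0647 (Rps4y2) to 0.211 (Nfic). Rps4y2 and Thbs1 passed without the 12-month library C (adjusted p = 0.0414 for each), and without the 12-month library A St5 (0.0823) and Nfic (0.085) did not pass. Without the 4-month library A Tapbpl did not pass (0.0964). The sign of each fold change was the same in all of these fits. Without the 4-month library C, 16 genes were higher and 29 lower, the 10 genes among them.

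**Figure D1:**
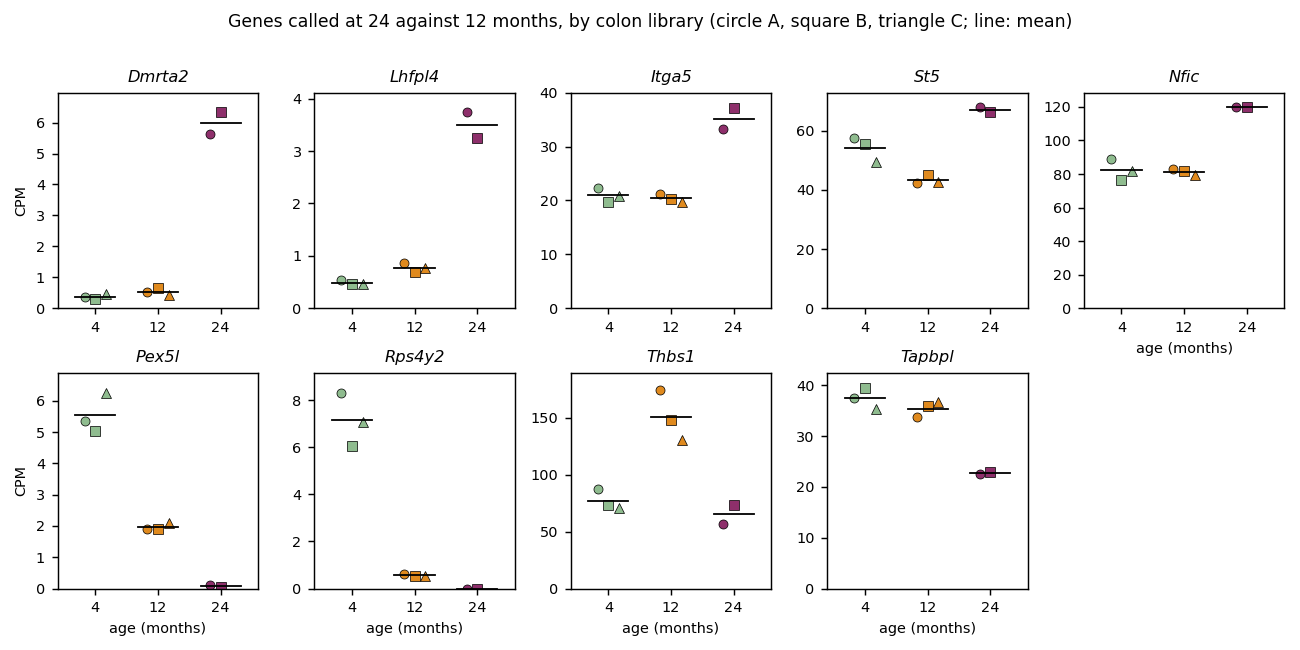
CPM (vertical axes, linear, from 0) of 9 genes that passed, against age in months, with 1 point per colon library (circle A, square B, triangle C) and a line at each group's mean. For all 9 genes both 24-month points lie on 1 side of the 3 points at 12 months, and for Thbs1 the 12-month points are the highest of the 3 ages.

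The genes next in order of p did not pass, and their values are given without a call. On the upper side these were Npas2 (below, with the clock genes), Sh3bp1, a GTPase-activating protein gene, with 20.5 and 15.5 CPM at 24 months against 10.6, 9.87 and 9.198 CPM at 12 months, and the ubiquitin ligase gene Trim6, with 6.73 and 6.99 against 3.88, 3.93 and 3.74 CPM. Next came the membrane protein gene Tmem139, with 32.95 and 27.1 against 18.97, 18.8 and 20.7 CPM, and Bok, a member of the BCL2 family, with 14.8 and 15.3 against 10.01, 7.602 and 7.21 CPM. Their log2 fold changes lay between 0.62 (Tmem139) and 0.87 (Bok), apart from Npas2, and the adjusted p was 0.112 to 0.123. On the lower side, Ptprn, a component of dense-core secretory vesicles, had 0.946 and 1.13 against 3.22, 2.91 and 2.89 CPM. Cspg4, the NG2 proteoglycan gene of pericytes and progenitor cells, had 0.834 and 0.826 against 2.99, 2.45 and 2.67 CPM, and Nxn, the redox protein nucleoredoxin, 1.22 and 0.716 against 3.799, 3 and 2.95 CPM. The log2 fold change was -1.53 ± 0.24 for Ptprn, -1.700 ± 0.27 for Cspg4 and -1.74 ± 0.29 for Nxn (adjusted p = 0.112 for each). Peg3, also in this group, is described with the imprinted genes.

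**Figure D2:**
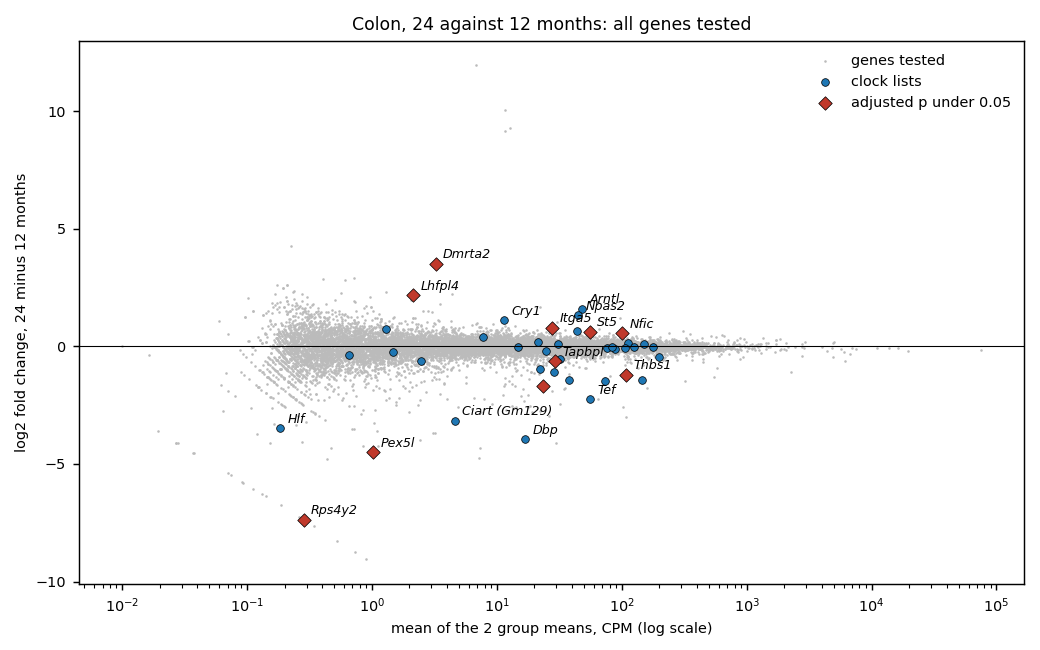
Log2 fold change of 24 minus 12 months (vertical axis) against the mean level of each tested gene (CPM, log axis), with genes that passed as red diamonds, members of the clock lists as blue circles and all other tested genes in grey. Dbp at -3.95, Ciart (Gm129) at -3.15 and Tef at -2.26 lie as far from 0 as many genes that passed, without passing in this fit.

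Genes of the circadian clock were widely separated between these 2 ages. Of 32 members of 4 clock lists, both 24-month libraries lay above all 12-month libraries for 7 and below them for 15, against 15.7% and 15.5% of all tested genes. Of the 32, 14 had an unadjusted p under 0.05 in the quasi-likelihood test, against 10.7% of all tested genes. None passed the adjusted threshold in the fit to 8 colon libraries, in which the 4-month libraries disagreed with each other (below). In the fit to the 5 compared libraries alone, where 27 genes (0.172%) passed, 8 of the 32 clock genes were among them: Npas2, Arntl and Cry1 higher and Dbp, Tef, Nr1d2, Ciart and Per3 lower at 24 months. Since the clock state of these groups was known when the groups were chosen for comparison, these values describe it and do not test it anew.

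Arntl, the gene of the activator BMAL1, had 75.5 and 69.97 CPM at 24 months and 26.9, 19.5 and 25.5 CPM at 12 months, which differ by 1.602 ± 0.33 on the log2 scale (adjusted p = 0.2, and 0.00161 in the 5 compared libraries). Npas2, a paralog of Clock that can replace it as the partner of BMAL1, had 63.2 and 65.6 CPM at 24 months and 26.7, 24.6 and 25.9 CPM at 12 months, a difference of 1.32 ± 0.21 (adjusted p = 0.112 and 2.82e-04). For both activators, the lower 24-month library was far above the highest 12-month library. Clock itself was nearly level, at 118 and 115 against 101, 110 and 109 CPM, though its groups did not overlap, and those of the Arntl paralog Arntl2, at 1.72 and 0.991 against 1.12, 1.98 and 1.67 CPM, did.

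The repressors were mostly lower. The period gene Per1 had 26.4 and 15.3 CPM at 24 months and 50.5, 70.2 and 45.9 CPM at 12 months, and Per2 had 19.3 and 10.7 against 28.8, 33.9 and 26.04 CPM. Per3 had 17.4 and 19.6 against 35.8, 45.5 and 35.7 CPM. All 3 period genes were separated between the groups, with log2 fold changes of -1.41 ± 0.40 for Per1, -0.98 ± 0.34 for Per2 and -1.07 ± 0.46 for Per3, and with adjusted p of 0.285, 0.362 and 0.442. In the 5 compared libraries Per3 passed (adjusted p = 0.0173) and Per1 and Per2 did not (0.0984 and 0.1597). The cryptochromes went in opposite directions. Cry1 had 17.1 and 14.3 CPM at 24 months against 6.303, 7.81 and 7.75 CPM at 12 months (log2 fold change 1.11 ± 0.20, adjusted p = 0.1503, and 0.0273 in the 5 libraries), and Cry2 23.5 and 22.4 against 25.9, 28.3 and 24.5 CPM, a difference of -0.20 ± 0.30 on the log2 scale.

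Nr1d1 and Nr1d2 encode the REV-ERB receptors, which repress Arntl. Nr1d1 had 42.9 and 113 CPM at 24 months, a wide gap between the 2 libraries, and 240, 237 and 162 CPM at 12 months, whereas Nr1d2 had 35.5 and 42.98 and 107, 114 and 103 CPM. Their log2 fold changes were -1.45 ± 0.51 and -1.46 ± 0.37, and Nr1d2 passed in the 5 compared libraries (adjusted p = 6.51e-04). Ciart (Gm129 in the annotation used), a repressor of the CLOCK and BMAL1 dimer, had 0.695 and 1.16 CPM at 24 months and 7.396, 10.5 and 6.96 CPM at 12 months, which is -3.15 ± 1.16 on the log2 scale (adjusted p = 0.374, and 0.00502 in the 5 libraries). Bhlhe40, a further repressor, overlapped between the groups at 151 and 189 and 274, 247 and 169.5 CPM.

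Among output genes, Dbp and Tef encode PAR bZIP transcription factors that bind D-box elements. Dbp had 1.75 and 2.37 CPM at 24 months and 30.4, 39.1 and 26.1 CPM at 12 months, and Tef had 20.3 and 18.04 against 89.3, 105 and 81.4 CPM. Neither gene had a 24-month library near the lowest 12-month one, with log2 fold changes of -3.95 ± 1.18 (adjusted p = 0.317, and 2.82e-04 in the 5 libraries) and -2.26 ± 0.69 (adjusted p = 0.326 and 2.82e-04). The third gene of the family, Hlf, was near the limit of detection at 0 and 0.0551 CPM against 0.2302, 0.466 and 0.328 CPM. Nfil3, which competes for the D-box as a repressor, overlapped at 9.51 and 8.12 and 10.2, 5.77 and 4.29 CPM. Rora, a receptor gene whose product activates Arntl, had 1.95 and 2.01 CPM at 24 months against 2.33, 2.62 and 4.07 CPM at 12 months. The deubiquitinase gene Usp2 had 28.7 and 22.97 against 34.4, 48.2 and 31.5 CPM and the tetraspanin gene Tspan4 1.78 and 1.43 against 0.748, 0.932 and 1.23 CPM, both without overlap. Por, the reductase that serves cytochrome P450 enzymes, Wee1, a kinase that restrains entry into mitosis, and Nampt, which makes NAD, all overlapped between the groups, with log2 fold changes of -0.026, -0.022 and -0.061.

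The kinases and ubiquitin ligases that set the stability of PER and CRY proteins were close to level. Log2 fold changes were 0.087 for Csnk1d and 0.16 for Csnk1e, the casein kinase genes, -0.045 for Gsk3b and -0.067 for Prkaa1, the kinase genes, and -0.37 for Fbxl21, 0.11 for Btrc and -0.015 for Fbxw11, the ubiquitin ligase genes. The smallest adjusted p among the 8 genes of the list was 0.625. The median log2 fold change was 0.72 for the 4 activator genes, -1.07 for the 9 repressor genes, -0.061 for the 11 output and ROR genes and -0.030 for the 8 genes of this list, beside 0.000338 for all genes tested.

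The 4-month colon libraries did not take 1 side of this division. Dbp was 2.31, 5.33 and 54.2 CPM in the 4-month libraries A, B and C, and Arntl was 74.8, 55.6 and 25.2 CPM, so that A and B resembled the 24-month and C the 12-month libraries. For Tef the levels were 14.96, 29.1 and 116 CPM, for Nr1d2 35.9, 57.2 and 112 CPM and for Ciart 0.398, 1.198 and 12.6 CPM, with the same split. Without the 4-month library C, 9 clock genes passed, the 8 of the 5-library fit among them. The 2 ages compared here thus differed in the clock genes, while libraries of 1 age at 4 months differed among themselves by as much. As the sources used here do not give the hour of collection, age and time of day cannot be told apart for the clock genes, nor for any other gene whose level follows the clock.

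**Figure D3:**
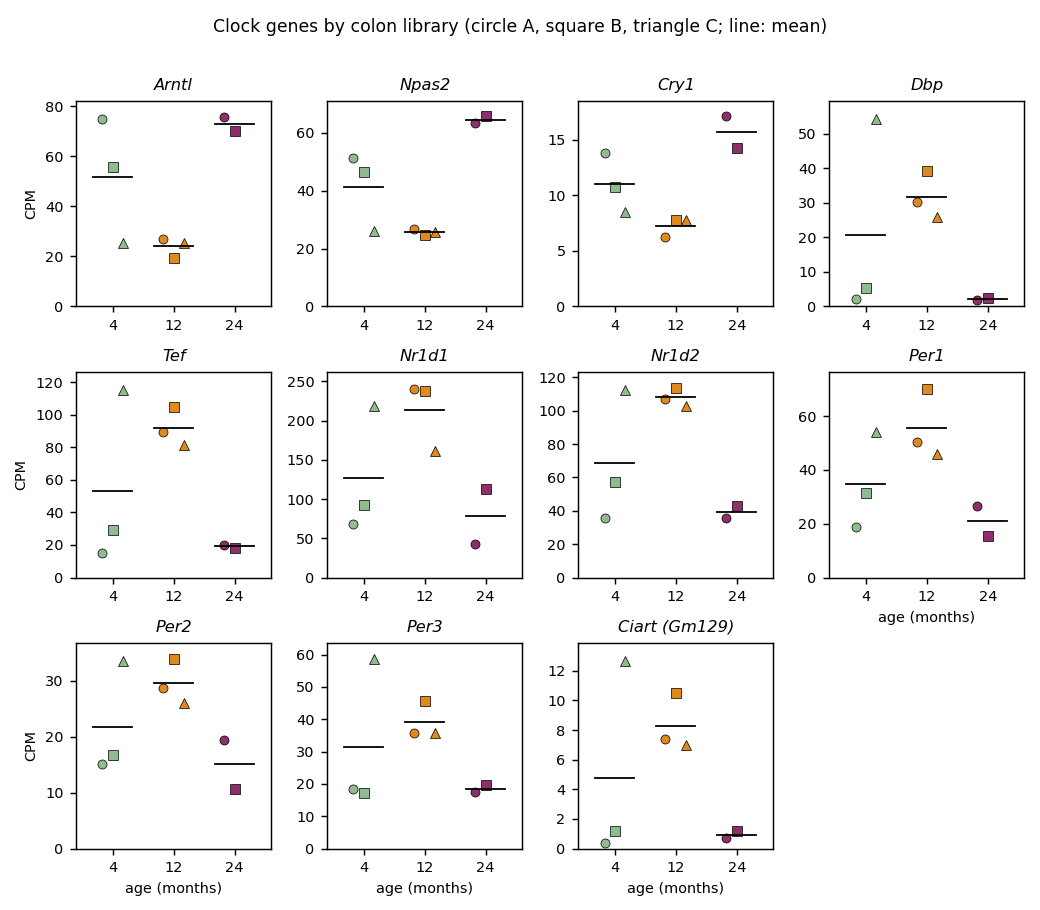
CPM (vertical axes, linear, from 0) of 11 clock genes against age in months, with 1 point per colon library (circle A, square B, triangle C) and a line at each group's mean. At 24 months Arntl, Npas2 and Cry1 are above and the other 8 genes below all 12-month points, and for most of the genes the 4-month triangle (library C) lies apart from the 4-month circle and square.

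The promoters of these genes are shown where the elements of the clock stand close to the start. Windows from 250 bases before to 50 after the start were available in RefSeq (GRCm38.p6) for 21 of the 25 members of the activator, repressor and output lists, and were searched on both strands for the E-box CACGTG, bound by CLOCK and BMAL1, the D-box TTATGTAA or TTACGTAA, bound by DBP, TEF and NFIL3, and the ROR element TAGGTCA, bound by ROR and REV-ERB receptors. No matches overlapped. The E-box was found for 6 of the 21 genes (Per1, Cry1, Ciart, Bhlhe41, Tef and Tspan4) and for 8.09% of all 27025 genes in the table, the D-box for 1 (Per3) and for 1.23%, and the ROR element for 2 (Arntl and Nfil3) and for 2.97%. The stretches below carry the matches in capitals, 5′ to 3′ on the strand of the gene. They are shown for the 5 genes that passed in the 5 compared libraries and had a match. Npas2, Dbp and Nr1d2 also passed there and had no match. They lie on chr3:95882259-95882358 (minus strand, Ciart), chr4:151044791-151044890 (minus strand, Per3), chr15:81802523-81802622 (plus strand, Tef), chr10:85185055-85185154 (minus strand, Cry1) and chr7:113207529-113207558 (plus strand, Arntl).
Ciart: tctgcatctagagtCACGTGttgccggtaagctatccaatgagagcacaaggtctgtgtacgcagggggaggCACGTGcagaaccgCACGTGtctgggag
Per3: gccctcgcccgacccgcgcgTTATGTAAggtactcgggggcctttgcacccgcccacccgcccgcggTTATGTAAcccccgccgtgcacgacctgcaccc
Tef: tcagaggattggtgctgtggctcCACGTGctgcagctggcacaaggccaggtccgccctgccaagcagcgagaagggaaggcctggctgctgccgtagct
Cry1: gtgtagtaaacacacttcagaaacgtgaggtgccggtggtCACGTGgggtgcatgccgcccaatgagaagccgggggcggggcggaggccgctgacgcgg
Arntl: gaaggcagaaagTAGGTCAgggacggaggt
Ciart, with 3 E-boxes between 130 and 31 bases before its start, and Tef were lower at 24 months, whereas Cry1, with an E-box in the last 100 bases before its start, was higher. Per3, with 2 D-boxes, was lower together with Dbp and Tef. Arntl, with a ROR element between 19 and 48 bases after a start, was higher where Nr1d1 and Nr1d2 were lower. Nfil3, the other gene with a ROR element, overlapped between the groups. Of the other genes with an E-box, Per1 was lower, Tspan4 was higher and Bhlhe41 was not among the tested genes. A match is a description of the letters, and binding was not measured.

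The same clock genes were then compared with the small intestine, using the fit to all 24 libraries. Dbp had 1.88 and 1.28 CPM at 24 months and 26.9, 25.6 and 50.3 CPM at 12 months in the USI, and 1.41 and 1.02 against 27.4, 47.6 and 23.3 CPM in the LSI. The log2 fold change was -3.95 ± 1.78 in the colon, -4.44 ± 1.83 in the USI and -4.75 ± 1.89 in the LSI. For Arntl it was 1.603 ± 0.45, 1.75 ± 0.45 and 1.43 ± 0.45, and for Npas2 1.32 ± 0.25, 1.300 ± 0.25 and 1.06 ± 0.25, in the same order. The direction was the same in the 3 sections for these and for Tef, the 3 period genes, Nr1d1, Nr1d2, Ciart, Bhlhe40 and Usp2. The sections cannot be taken as independent. Libraries of 1 age with the same letter mostly deviated together between the colon and the small intestine (16 pairs, correlations of deviations -0.059 to 0.512, median 0.294). At 12 months, however, colon B had a correlation of -0.059 with USI B and 0.414 with USI C. Deviations were taken from each group's mean, which pushes pairs with other letters (28 pairs, median -0.244) to the opposite sign. Those pairs are therefore no separate comparison. The 24-month library B of each small-intestinal section also held Y-linked counts, 6067 for the USI and 3440 for the LSI. Cry1 was an exception to the shared direction, at 1.11 ± 0.28 in the colon, -0.65 ± 0.29 in the USI and 0.35 ± 0.28 in the LSI, and its difference between colon and USI had an unadjusted p of 3.78e-04 that did not pass adjustment (0.5297).

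**Figure D4:**
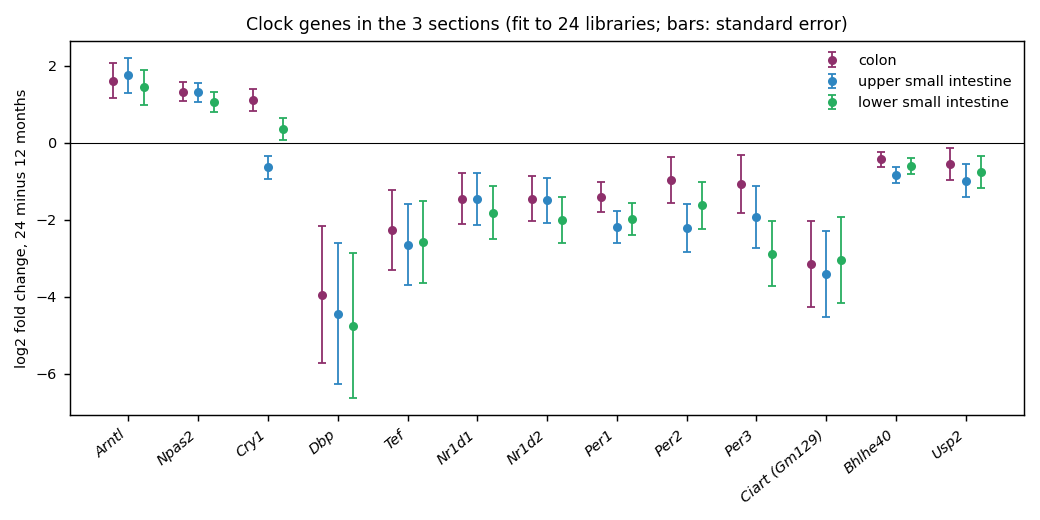
Log2 fold change of 24 minus 12 months (vertical axis) of 13 clock genes in the colon, the upper and the lower small intestine, with points for the estimates and bars for the standard errors from the fit to 24 libraries. The 3 sections lie on the same side of 0 for all genes but Cry1, for which the upper small intestine is at -0.65.

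No gene's difference between 24 and 12 months was shown to differ between sections by edgeR's quasi-likelihood test of the interaction. Of 17491 genes, 0 (0%) passed for colon against USI and 0 (0%) for colon against LSI, with 736 (4.21%) and 1052 (6.01%) at an unadjusted p under 0.05, and the likelihood ratio test called 4 and 9. Side by side, the log2 fold change of Dmrta2 was 3.51 ± 0.69 in the colon, 1.76 ± 0.79 in the USI and 1.43 ± 0.76 in the LSI, with the standard errors of this fit. Thbs1, at -1.21 ± 0.48, -1.63 ± 0.50 and -1.85 ± 0.50, Itga5, at 0.79 ± 0.52, 0.91 ± 0.54 and 0.84 ± 0.54, and Lhfpl4, at 2.17 ± 0.50, 1.28 ± 0.61 and 2.09 ± 0.60, had the same sign in all sections. For Nfic the values were 0.56 ± 0.14, -0.15 ± 0.14 and -0.11 ± 0.14, and for Tapbpl -0.64 ± 0.16, 0.19 ± 0.16 and 0.31 ± 0.16, so that the sign in the colon was not that of the small intestine. The unadjusted p of the difference from the USI was 0.00198 for Nfic and 0.00166 for Tapbpl, and neither passed adjustment (0.866 and 0.834). Rps4y2 was lower at 24 months in all sections, with 1.29 and 1.46 CPM against 7.75, 6.52 and 8.39 CPM in the USI and 1.05 and 1.86 against 8.31, 5.86 and 8.52 CPM in the LSI.

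The cell type markers were examined next, and none of the members of the lists that follow passed the adjusted threshold, against 0.0622% of all tested genes. Counts without overlap in all these lists stand against 15.7% of all tested genes higher and 15.5% lower at 24 months. Counts at an unadjusted p under 0.05 in the quasi-likelihood test stand against 10.7%. Markers of small-intestinal enterocytes, the absorptive cells of the other sections, were lower in the 24-month colon. Of 22 members tested, 22 had a negative log2 fold change with a median of -1.98, 15 had an unadjusted p under 0.05, and for 14 both 24-month libraries lay below all 12-month libraries. Anpep, a brush border aminopeptidase, had 18.2 and 30.4 CPM at 24 months and 49.01, 212 and 316 CPM in the 12-month libraries A, B and C (log2 fold change -2.99 ± 0.68, adjusted p = 0.208). The glucose transporter gene Slc2a2 had 0.278 and 0.275 against 0.633, 3.204 and 1.64 CPM, and the apolipoprotein gene Apoc3 0.111 and 0.2203 against 0.691, 4.43 and 0.983 CPM. Libraries B and C at 12 months were the high ones, and library A stood closer to the 24-month libraries. The summed level of the list was 970.5 and 963.8 CPM at 24 months, 1073, 1852 and 1973 CPM at 12 months and 764.0 to 1133 CPM at 4 months. In the LSI, Anpep ranged from 1839 to 12710 CPM.

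Markers of Paneth cells, antimicrobial secretory cells that belong to the small-intestinal crypt, varied among the 12-month libraries. Those named here were highest in library C. Lyz1, their lysozyme gene, had 26.3 and 32.05 CPM at 24 months, 91.8, 39.99 and 396 CPM at 12 months and 14.8, 5.55 and 15.6 CPM at 4 months, and the defensin gene Defa24 had 9.9 and 9.996 against 28.2, 13.8 and 119 CPM. Defa21, a further defensin, had 5.59 and 5.73 against 21.6, 5.59 and 87.8 CPM and the lectin gene Itln1 21.9 and 8.45 against 66.3, 15.2 and 79.9 CPM, both with overlap. Of 17 Paneth cell genes tested, 1 had a positive fold change, 9 had an unadjusted p under 0.05 and 3 were lower without overlap, with a median of -1.83. The summed level of the list was 1798 and 1461 CPM at 24 months and 2697, 1582 and 2310 CPM in the 12-month libraries A, B and C. These sums overlapped between the ages, and library A had the highest. Lyz1 ranged from 7855 to 15000 CPM in the LSI. Defensins are near-identical copies, so counts of single members are uncertain. Markers of both small-intestinal cell types moved with 1 or 2 of the 12-month libraries, and their part in the other results was not tested.

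Genes of colonic identity were mostly higher at 24 months, and those of small-intestinal identity mostly lower. Of 12 genes of colonic identity, 6 were higher at 24 months without overlap and 1 was lower, against 15.7% and 15.5% of all tested genes. Their median was 0.36. Hoxa9 and the posterior genes of the HoxD cluster, which pattern the hindgut, led the list. Hoxd10 had 3.56 and 3.002 CPM at 24 months, 0.691, 1.49 and 0.328 CPM at 12 months and 1.78, 2.12 and 3.59 CPM at 4 months (log2 fold change 1.98 ± 0.49, adjusted p = 0.2196), and Hoxa9 had 48.2 and 58.5 against 39.4, 40.05 and 33.4 CPM (0.51 ± 0.11, adjusted p = 0.205). Hoxd11 had 1.17 and 1.82 against 0.9497, 0.437 and 0.218 CPM and Hoxd12 2.697 and 1.65 against 0.691, 0.612 and 0 CPM. Library C at 12 months, the one with the highest Lyz1, was the lowest for all 4 genes. Of 8 small-intestinal identity genes, 2 were higher and 3 lower without overlap, and 6 had a negative log2 fold change, with a median of -0.25. The 2 higher ones were Pdx1 and Gata4. Pdx1, a transcription factor gene of pancreas and duodenum, had 4.64 and 4.35 against 1.496, 2.301 and 1.06 CPM (1.47 ± 0.32, adjusted p = 0.205) and Gata4, of the proximal intestine, 3.73 and 3.19 against 1.84, 1.92 and 3.11 CPM. Hnf4g, a nuclear receptor of enterocytes, had 44.4 and 46.1 against 57.7, 58.6 and 79.99 CPM (-0.53 ± 0.14, adjusted p = 0.239), and Gata5 overlapped at 2.53 and 1.24 and 2.13, 3.699 and 6.305 CPM.

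The lists of resident colon cells lay nearer to 0. Of 22 colonocyte genes, 3 were higher and 8 lower without overlap, against 15.7% and 15.5% of all tested genes, with a median of -0.096. Their log2 fold changes ran from -2.199 to 0.53, and 9 were positive. The colonocyte genes named next are those of smallest p, and all were lower. Slc9a3, the sodium-proton exchanger of the apical membrane, had 46.4 and 49.9 CPM at 24 months and 87.3, 150.2 and 104 CPM at 12 months (-1.24 ± 0.31, adjusted p = 0.2302). At 4 months it had 51.7, 58.1 and 109 CPM in libraries A, B and C, split as for Dbp and Arntl. It is also expressed by small-intestinal enterocytes. Whether its level followed the clock or such cells was not tested. Emp1, a membrane protein of surface cells, had 310.3 and 383 against 472, 514 and 671 CPM, the guanylin family gene Guca2b 23.7 and 23.9 against 25.3, 33.96 and 30.8 CPM, and Scnn1g, a subunit of the epithelial sodium channel, 0.223 and 0.193 against 0.518, 1.98 and 0.409 CPM. Of 15 goblet cell genes, 3 were higher and 0 lower without overlap, with a median of -0.088. Their log2 fold changes ran from -1.47 to 0.39, and 6 were positive. The mucus proteins Zg16, at 1974 and 1816 against 1673, 1666 and 1356 CPM, and Tff3, at 497 and 489 against 458, 394 and 292 CPM, were among the higher. Of 17 enteroendocrine genes, 5 were lower without overlap, such as the somatostatin gene Sst at 6.59 and 7.38 against 8.63, 9.15 and 8.71 CPM, the secretin gene Sct at 8.04 and 6.09 against 8.63, 10.3 and 10.2 CPM and the ghrelin gene Ghrl at 0.612 and 0.165 against 0.662, 0.728 and 0.7096 CPM. Of 12 tuft cell genes, Lrmp was higher without overlap, at 14.9 and 14.2 against 10.7, 11.8 and 7.505 CPM.

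Stem cell genes were close to level as a list, with a median of -0.0082 over 18 members, 2 higher and 2 lower without overlap. Lgr5, the stem cell receptor that carries the reporter, had 21.3 and 20.6 CPM at 24 months, 25.4, 23.3 and 28.9 CPM at 12 months and 25.6, 21.7 and 31.9 CPM at 4 months (log2 fold change -0.30 ± 0.15, adjusted p = 0.536). Ascl2, a transcription factor gene of the stem cell state, was higher in both 24-month libraries, at 16.9 and 11.9 against 9.44, 10.98 and 7.89 CPM (0.61 ± 0.18, adjusted p = 0.305), as was the ephrin receptor gene Ephb3, at 55.4 and 55.95 against 51.6, 44.5 and 48.2 CPM. Olfm4, which marks stem cells of the small intestine, had 8.84 and 11.3 CPM at 24 months and 12.5, 12 and 53.5 CPM at 12 months, with the 12-month library C again the high one. Of 22 proliferation genes, 3 were higher and 1 lower without overlap (median 0.018). The replication genes Pcna and Mcm5 had 61.4 and 63.4 against 57.6, 52.2 and 52.2 CPM and 47.8 and 48.2 against 36.4, 29.1 and 46.3 CPM, Mcm6 overlapped at 85.1 and 80.3 and 63.7, 55.7 and 82.4 CPM, and the mitotic cyclin gene Ccnb2 had 29.2 and 36.05 against 39.02, 38.2 and 45.3 CPM.

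Genes of T cells and intraepithelial lymphocytes were lower at 24 months, while those of B and plasma cells and of myeloid cells went in both directions. Of 17 genes of T cells and intraepithelial lymphocytes, 17 had a negative log2 fold change, with a median of -0.62. Of these, 10 were lower without overlap, against 15.5% of all tested genes. Cd3g, a subunit of the T cell receptor complex, had 1.33 and 1.43 CPM at 24 months and 2.79, 2.56 and 2.95 CPM at 12 months (-0.999 ± 0.20, adjusted p = 0.194), and the T cell kinase gene Lck had 4.06 and 2.95 against 5.04, 4.89 and 5.68 CPM (-0.57 ± 0.18). Cd7 had 2.39 and 3.002 against 4.61, 4.05 and 3.79 CPM and Cd4 0 and 0.165 against 0.317, 0.349 and 0.7096 CPM. The summed level of the list was 28.3 and 33.1 CPM at 24 months, 39.1 to 50.3 CPM at 12 months and 33.1 to 45.8 CPM at 4 months. Of 8 genes of B and plasma cells, 1 was higher and 3 were lower without overlap, with the joining chain gene Igj at 0.389 and 0.441 against 1.06, 0.932 and 0.655 CPM and Ighm at 1.92 and 1.79 against 3.02, 2.74 and 2.84 CPM. Of 12 myeloid genes, 3 were higher and 4 lower without overlap. Their summed level overlapped, at 51.2 and 44.61 CPM at 24 months and 49.61, 44.89 and 43.75 CPM at 12 months. Ccr2, the chemokine receptor of monocytes, had 1.502 and 1.05 CPM at 24 months, 0.0576, 0.175 and 0.273 CPM at 12 months and 0.265, 0.153 and 0.282 CPM at 4 months (2.88 ± 0.53, adjusted p = 0.156), so that both 24-month libraries stood above all others, while the pan-leukocyte gene Ptprc had 6.09 and 5.32 against 8.69, 7.49 and 6.796 CPM, Itgax 0.334 and 0.413 against 0.748, 0.874 and 0.655 CPM and the complement gene C1qa 0.223 and 0.441 against 0.748, 0.466 and 1.97 CPM.

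Genes of MHC class II presentation and of the interferon response mostly had negative log2 fold changes, but the summed levels of both lists overlapped. The class II sum was 188.1 and 228.2 CPM at 24 months and 197.6, 273.1 and 327.8 CPM in the 12-month libraries A, B and C. For both lists, 12-month libraries B and C, also high for small-intestinal enterocyte markers, had the highest sums of the 5 compared. Whether these are linked was not tested. Of 9 class II genes, 5 were lower without overlap, with a median of -1.41. H2-Aa had 3.12 and 5.62 CPM at 24 months, 6.33, 17.01 and 31.1 CPM at 12 months and 43.1, 31.1 and 5.06 CPM at 4 months, H2-DMb1 1.17 and 2.42 against 2.59, 4.89 and 6.004 CPM and H2-Eb1 1.75 and 3.99 against 4.12, 6.96 and 14.6 CPM, and H2-Ab1 overlapped at 3.03 and 8.45 and 7.31, 16.6 and 28.9 CPM. Of 36 interferon response genes, 16 were lower and 2 higher without overlap, against 15.5% and 15.7% of all genes, with a median of -0.30. The guanylate-binding protein gene Gbp7 had 2.11 and 1.93 against 3.799, 4.31 and 5.02 CPM (-1.11 ± 0.37, adjusted p = 0.351), the chemokine gene Cxcl9 0.111 and 0.0551 against 0.461, 0.233 and 1.09 CPM and the GTPase gene Iigp1 0.167 and 0.0551 against 0.633, 1.46 and 4.26 CPM. The antiviral gene Rsad2 went the other way, at 4.98 and 5.95 against 2.82, 3.15 and 4.37 CPM (0.66 ± 0.23, adjusted p = 0.362). Iigp1 was 22.8, 22.98 and 0.904 CPM in the 4-month libraries, and the summed interferon list was 1201, 1299 and 750.1 CPM there, 654.4 and 674.6 CPM at 24 months and 642.3 to 797.7 CPM at 12 months, so A and B at 4 months held the highest levels of all. Of 14 antimicrobial genes, 2 were higher and 3 lower without overlap. Nos2, the inducible nitric oxide synthase, had 0.612 and 1.27 against 3.25, 5.83 and 14.7 CPM (-3.08 ± 0.73, adjusted p = 0.208), the acute phase gene Saa3 0.473 and 0.496 against 1.12, 1.28 and 1.39 CPM, the lectin gene Reg3a 0.612 and 1.07 against 1.09, 1.86 and 1.86 CPM and the cytokine gene Il18 80.8 and 98.7 against 70.8, 78.8 and 50.5 CPM.

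Markers of cells below the epithelium were low, and their lists differed in direction. The summed level of 14 stromal genes was 31.1 and 31.7 CPM at 24 months and 27.8 to 39.8 CPM at 12 months, with a median log2 fold change of -0.23. The collagen receptor gene Ddr2 had 1.83 and 1.87 against 0.777, 0.9903 and 1.25 CPM, Postn 0.389 and 0.441 against 0.2302, 0.117 and 0.218 CPM and the matrix protein gene Sparc 0.834 and 0.661 against 1.44, 0.874 and 1.77 CPM. Smooth muscle genes had a median of 0.50 over 8 members, 6 of them positive. Their summed level was nonetheless lower at 24 months, at 81.4 and 98.3 against 98.6 to 123.9 CPM. Most of that sum came from the myosin kinase gene Mylk, at 63.9 and 67.5 against 78.02, 90.2 and 99.3 CPM, so the sum does not describe the list. Of 5 endothelial genes, with a median of -0.43, Kdr, a VEGF receptor, had no count at 24 months and 4, 14 and 12 counts at 12 months. With a floor of 3 counts at 24 months, as for Rps4y2, its level was 6.83-fold lower than at 12 months. Pecam1 was 2.56 and 2.45 against 2.59, 3.903 and 3.903 CPM and Vwf 6.702 and 7.46 against 7.34, 5.04 and 4.503 CPM. Of 6 genes of enteric nerve and glia, with a median of 0.31, Tubb3 was 0.445 and 0.275 against 0.0576, 0.0583 and 0.0546 CPM, Ret 2.67 and 2.48 against 2.85, 3.495 and 2.87 CPM, and Snap25 overlapped, as did all 6 erythroid genes, whose median was 0.37. Of the 13 mitochondrially encoded genes, 13 had a negative log2 fold change, with a median of -0.17.

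Imprinted genes, expressed from 1 parental allele, held some of the lowest values among those that did not pass. Of 17 tested, 8 were lower and 3 higher without overlap, against 15.5% and 15.7% of all tested genes, with a median of -0.098. Peg3, a paternally expressed zinc finger gene, had 1.11 and 0.551 CPM at 24 months, 3.05, 3.96 and 5.05 CPM at 12 months and 4.88, 5.76 and 6.64 CPM at 4 months (log2 fold change -2.27 ± 0.33, adjusted p = 0.0612), just outside the threshold. From the Dlk1-Meg3 region, the noncoding RNA Rian had 0.278 and 0.3304 CPM at 24 months, 1.09, 1.17 and 1.09 CPM at 12 months and 7.16, 15.8 and 9.804 CPM at 4 months (-1.86 ± 0.42, adjusted p = 0.207). Dlk1, a noncanonical Notch ligand, had no count at 24 months, 18, 2 and 8 counts at 12 months and 84, 116 and 48 counts at 4 months. With a floor of 3 counts at 24 months, as for Rps4y2, its level was 6.38-fold lower than at 12 months. For these 3 genes each later age lay below the earlier one in the group means, and Rian and Dlk1 did not overlap between any of the ages. The zinc finger gene Plagl1 had 3.23 and 2.699 against 5.47, 4.69 and 6.99 CPM (-0.95 ± 0.30) and 3.87, 3.31 and 6.64 CPM at 4 months.

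Of 25 immediate early and dissociation stress genes tested, 2 were higher and 3 lower without overlap, against 15.7% and 15.5% of all tested genes. Their median was -0.32. The summed level of this list was 6224 and 7727 CPM at 24 months and 11260, 9523 and 5072 CPM at 12 months, so the 12-month libraries A and B were the high ones and C was the lowest. The phosphatase gene Dusp5 had 5.14 and 5.62 CPM at 24 months and 20.5, 22.3 and 9.47 CPM at 12 months (-1.69 ± 0.35, adjusted p = 0.2), and the transcription factor gene Atf3 55.5 and 87.9 against 328, 294 and 112 CPM (-1.77 ± 0.43, adjusted p = 0.216). Fosb, of the AP-1 complex, had 335 and 469.6 against 1044, 841 and 391 CPM, and the EGF receptor ligand gene Hbegf 77.5 and 108 against 232, 209 and 90.5 CPM. The 12-month library C stood with the 24-month libraries for Fosb and Hbegf. Of 14 genes of the unfolded protein response, 4 were higher and 3 lower without overlap, with a median of -0.093. Herpud1, of endoplasmic reticulum-associated degradation, had 129.8 and 134 against 200.4, 216 and 161 CPM (-0.55 ± 0.12, adjusted p = 0.205) and the cochaperone gene Dnajb9 54.1 and 56.7 against 82.5, 80.4 and 70.7 CPM, whereas Sdf2l1 had 33.04 and 29.1 against 21.9, 20.3 and 20.99 CPM (0.56 ± 0.13, adjusted p = 0.208) and Creld2 35.01 and 28.4 against 23.6, 22.2 and 23.5 CPM. Heat shock genes had a median of -0.067 over 14 members, and Hsph1 and Dnajb1 overlapped at 33.6 and 22.2 against 31.02, 45.99 and 49.5 CPM and 99.5 and 74.3 against 138, 144 and 93.2 CPM.

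Of 17 genes of cholesterol synthesis and uptake, 3 were lower and 1 higher without overlap, with a median of -0.12. The sterol carrier gene Stard4 had 222 and 215 CPM at 24 months against 265, 247 and 272 CPM at 12 months, while Insig1, at 78.2 and 107 against 154, 98.8 and 146 CPM, overlapped. Of 16 genes of the glucocorticoid and fasting response, which includes Per1, 1 was higher and 3 lower without overlap. Fkbp5, a chaperone of the glucocorticoid receptor, had 104 and 85.1 against 106, 176 and 134 CPM, Klf9 63.1 and 61.2 against 76.7, 86.7 and 64.98 CPM and Ddit4, which overlapped, 46.7 and 38.4 against 38.8, 31.4 and 27.9 CPM. Of 13 senescence genes, 2 were higher and 1 lower without overlap, against 15.7% and 15.5% of all tested genes. The chemokine gene Ccl20 had 1.67 and 1.597 against 0.662, 0.932 and 0.6004 CPM (1.16 ± 0.34, adjusted p = 0.312), the cell cycle inhibitor gene Cdkn1a 208 and 244 against 269.9, 264 and 247 CPM, the cytokine gene Il1a 0.306 and 0.303 against 0.0863, 0.117 and 0.109 CPM and Cdkn2b, which overlapped, 33.3 and 44.8 against 36.7, 29.8 and 25.6 CPM.

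The study asked how DNA methylation drifts with age, and the genes that write, read and erase the mark were close to level between these ages. Of 14 genes of the methylation machinery, 2 were higher and 0 lower without overlap, against 15.7% and 15.5% of all tested genes. Their log2 fold changes ran from -0.53 to 0.23, with a median of 0.041. Dnmt1, the maintenance methyltransferase, had 89.99 and 89.9 CPM at 24 months, 74.02, 67.05 and 88.3 CPM at 12 months and 98.98, 97.6 and 72.7 CPM at 4 months (0.23 ± 0.14, adjusted p = 0.6201). Its partner Uhrf1, which brings it to newly replicated DNA, had 36.6 and 43.1 against 30.3, 30.1 and 42.9 CPM. The de novo methyltransferase genes Dnmt3a and Dnmt3b had 51.6 and 47.8 against 48.1, 50.8 and 49.4 CPM and 4.03 and 3.36 against 2.91, 4.57 and 3.22 CPM. Of the demethylation enzymes, Tet1 had 1.83 and 1.49 against 2.13, 1.63 and 3.44 CPM (-0.53 ± 0.37), Tet2 30.9 and 35.5 against 28.7, 30.4 and 34.3 CPM (0.091 ± 0.15) and Tet3 112 and 108 against 111, 126 and 118 CPM (-0.11 ± 0.084). The reader gene Zbtb38, with the smallest p of the list, overlapped at 50.7 and 45.7 and 55.2, 50.5 and 62.4 CPM (-0.22 ± 0.10, adjusted p = 0.4699).

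**Figure D5:**
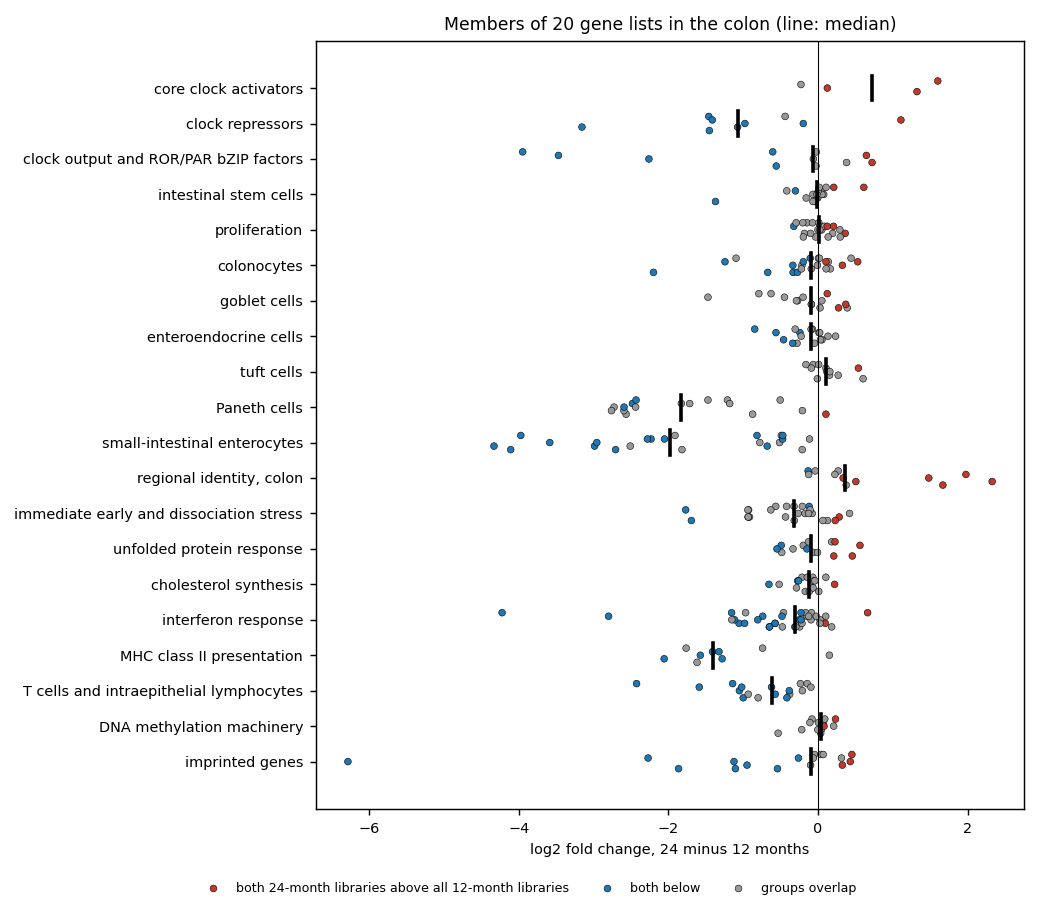
Log2 fold change of 24 minus 12 months (horizontal axis) of each tested member of 20 gene lists (rows), with red points for genes whose 24-month libraries both lie above all 12-month libraries, blue points for those below, grey points for overlap and a black line at the list's median. The medians of small-intestinal enterocytes (-1.98), Paneth cells (-1.83) and MHC class II presentation (-1.41) lie furthest below 0, and those of stem cells, proliferation and DNA methylation machinery lie next to it.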

How the data were processed

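The authors deposited raw counts per gene, which the file headers trace to featureCounts 2.0.0 and an Ensembl annotation of mm9. Strand was ignored and both mates of a pair added to the count, so antisense and overlapping genes cannot be told apart. STAR is named in the paper's methods but TopHat2, HTSeq and Cuffdiff in the submitters' processing notes. Symbols and coordinates came from the mm9 annotation (37310 of 37681 genes).

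The 8 colon libraries, 1 coefficient per age, were fitted in edgeR 4.0.16 (R 4.3.3, quasi-likelihood F test) after filterByExpr and TMM, with two-sided Benjamini-Hochberg adjusted p under 0.05. The interaction with section used all 24 libraries. Every replicate pair differed by more than sampling noise. Members and lists were chosen with earlier results of these data known. Named were up to 15 genes per direction that passed without overlap, filled to 10 by smallest p, every clock gene and up to 4 members of smallest p per list. Some genes that this rule takes are not reported here. Car1 and Muc2 were chosen after their values were seen. Alternatives included DESeq2 1.42.0, other filters, scalings and libraries. The steps were tested on simulated data.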

Additional observations from a re-analysis of the deposited data

How the results depend on the processing

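The calls depended on how the spread was estimated. Against 5 genes higher and 5 lower, the likelihood ratio test gave 57 and 126, DESeq2 57 and 120, no low-count filter 22 and 52, the 5 compared libraries 11 and 16, all 24 libraries 0 and 1, counts divided by 2 gave 4 and 3, and a further threshold of 1.5 on the log2 fold change left 2 and 3. RLE size factors, robust dispersion, a filter at 1 CPM and an adjusted p under 0.1 kept both counts within 1.5 times. Leaving out a library gave 1 to 16 higher and 1 to 29 lower genes, the highest without the 4-month library C. The omissions of 4-month libraries were chosen after seeing the data. Clock genes called were 8 by the likelihood ratio test, 4 by DESeq2, 4 with no low-count filter, 8 in the 5 compared libraries, 0 to 9 when a library was left out, and 0 elsewhere. The interaction tests gave 4 genes for the USI and 9 for the LSI by the likelihood ratio test and 0 otherwise.

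Letters are shared between the ages, but same-lettered colon libraries of different ages did not deviate together throughout (7 pairs, correlations -0.043 to 0.202, median 0.098), so the letters were not taken as pairs. With the letter as a replicate block, 2 genes were higher and 2 lower, 2 of them among the 10, no clock gene passed, and the log2 fold change changed sign for Dnmt3b (-0.050), Por (0.097) and Wee1 (0.093). The interaction with a block of age and letter called 0 genes in both sections. That block takes the letter as shared between sections, and same-lettered libraries did not deviate together throughout. For the 147 genes named with a fold change, the sign also changed when a library was left out for Arntl2 (-0.68 to 0.12), Dnmt3a (-0.048 to 0.060), Dnmt3b (-0.086 to 0.27), Fbxw11 (-0.052 to 0.015), Por (-0.077 to 0.023), Tet2 (-0.0126 to 0.19) and Wee1 (-0.090 to 0.099). The cause was not tested.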
